A study of Mus musculus with 5 samples.

Results

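The HoxB cluster is a run of neighbouring genes for homeodomain transcription factors on mouse chromosome 11. Its members were taken as all probes whose gene symbol is Hoxb1 to Hoxb9 or Hoxb13, and they were followed in paralog order over the 5 arrays. They comprised 11 probes for 10 genes, of 20377 named probes for 17742 genes in all, and Hoxb3 alone had 2 probes. Transcript levels had been measured on single-colour microarrays, with total RNA from 1 culture in each of 5 groups: ESCs, meaning mouse embryonic stem cells of the line 46C at day 0, Linc1405 knockdown and control cells at day 4, and Linc1405 knockdown and control cells at day 10. In the labels the day 4 cells are mesoderm cells and the day 10 cells are cardiomyocytes, all derived from the ESCs. They name the knockdown samples MES_1405KIpA and CM_1405KIpA. The sources used here do not give how the knockdown line was made, or from how many clones.

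According to the labels, ESCs were kept on feeder cells, removed at harvest, in 15% serum with leukaemia inhibitory factor at 1000 U/ml. The medium of both day 4 cultures held 5 ng/ml of Activin A, 5 ng/ml of VEGF and 0.2 ng/ml of Bmp4. That of both day 10 cultures held 25 ng/ml of FGF10, 10 ng/ml of bFGF and 5 ng/ml of VEGF. Linc1405 is a long non-coding RNA that the series title places in a complex with Eomes, a T-box factor that acts in the primitive streak. Its own level was not analysed here, so the knockdown was not checked. With 1 array per group there is no spread within a group and no test, and each difference below describes a pair of arrays. The number of arrays limits the precision.

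Hox proteins give cells their address along the body axis, and their clusters open in order: genes at the Hoxb1 end are transcribed early and reach far forward, and genes towards Hoxb13 follow later and further back. In the embryo the cluster is switched on in the posterior primitive streak under Wnt and FGF signals, Cdx transcription factors raise its central genes, and retinoic acid acts on genes at the Hoxb1 end. Hox proteins bind DNA together with the TALE homeodomain proteins Pbx and Meis. In heart development, cells that once expressed Hoxb1 or its HoxA paralog contribute to the posterior second heart field, which forms the inflow and outflow ends of the heart.

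Deposited intensities were quantile normalized over the arrays, values under 100 were raised to 100 as a floor, and log2 was taken, so that the floor is 6.64. A gene passed the filter where the brighter array of a pair lay at or above 10.04, the median log2 level of all genes, and it was counted at a difference of 2-fold or more, which is 1 on the log2 scale. A probe's level is compared only with its own level on other arrays. The between-probe SD, taken from genes with several probes, measures probe error and not differences between cultures. It was 0.194 for knockdown minus control at day 4 (810 genes), 0.262 at day 10 (810 genes), 0.574 for control day 4 minus ESCs (867 genes), 0.715 for control day 10 minus control day 4 (907 genes) and 0.658 for the same step in knockdown cells (895 genes). Median deposited intensities ran between 344 and 745 over the arrays. Measured ESC markers (6 of 8, among them Zfp42 and Esrrb) summed to a normalized intensity of 10119 in knockdown and 11936 in control cells at day 4, against 395899 in ESCs. The 6 mesoderm markers, among them T and Mesp1, summed to 51453 in knockdown and 83663 in control cells at day 4, against 7816 in ESCs. At day 4 T, Mesp1, Mixl1 and Kdr were lower in knockdown cells, while Pdgfra was higher by 0.28. Eomes differed by 0.16, within the between-probe SD, and was at 12.15 in ESCs and 12.01 in control day 4 cells. The 6 measured cardiomyocyte markers of 10 summed to 280037 in knockdown and 478909 in control cells at day 10. They did not differ in the same direction: 4 were at least 2-fold lower in knockdown cells, while Tnnt2 was higher by 3.05. The shares of all genes past the filter were 3.51% lower and 2.41% higher. The 7 measured fibroblast markers of 8 summed to 227369 in knockdown and 216912 in control cells at day 10. The day 10 cultures thus held matrix transcripts beside those of heart muscle. The same markers summed to 34876 in ESCs, and to 1619 in knockdown and 1935 in control cells at day 4. The ESC array thus carried more fibroblast signal than the day 4 arrays, and the part of feeder cells in the ESC levels of Hox genes was not tested. In bulk RNA, fewer cells of a type and less RNA per cell cannot be told apart.

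Promoter windows of 3 of the 10 members are held in the RefSeq table of assembly GRCm38.p6. They are shown because they were the only ones held, and not for their behaviour. In knockdown cells at day 4, Hoxb8 and Hoxb4 were at least 2-fold higher and Hoxb1 was level. Each window is the 250 bases before the annotated start, on the plus strand: chr11:96365508-96365757 for Hoxb1, chr11:96318017-96318266 for Hoxb4 and chr11:96281655-96281904 for Hoxb8. Capitals mark matches, on either strand, to TTTATG, the letters preferred by Cdx proteins, to TGATNNAT, a pattern of paired Pbx and Hox proteins, and to AGGTCA, the core letters bound by retinoic acid receptors.
Hoxb1: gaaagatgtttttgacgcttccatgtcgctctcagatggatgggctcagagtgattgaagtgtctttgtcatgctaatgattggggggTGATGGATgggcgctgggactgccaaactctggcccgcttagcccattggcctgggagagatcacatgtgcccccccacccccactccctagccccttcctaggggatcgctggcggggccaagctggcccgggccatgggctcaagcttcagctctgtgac
Hoxb4: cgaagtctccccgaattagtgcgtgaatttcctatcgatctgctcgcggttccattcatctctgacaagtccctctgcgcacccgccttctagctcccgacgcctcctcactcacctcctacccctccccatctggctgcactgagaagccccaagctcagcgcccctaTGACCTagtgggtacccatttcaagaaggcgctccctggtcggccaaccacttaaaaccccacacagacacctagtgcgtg
Hoxb8: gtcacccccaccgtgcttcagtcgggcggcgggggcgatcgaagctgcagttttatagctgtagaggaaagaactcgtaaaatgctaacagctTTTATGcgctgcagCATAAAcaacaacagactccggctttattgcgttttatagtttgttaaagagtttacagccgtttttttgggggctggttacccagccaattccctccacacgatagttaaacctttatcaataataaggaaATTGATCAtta
The Hoxb8 window held TTTATG as 2 matches, 1 on each strand, with first bases 157 and 143 bases before the start, and TGATNNAT as 1 match. The Hoxb1 window held TGATNNAT as 1 match, at 162 bases before the start, and the Hoxb4 window held AGGTCA as 1 match on the opposite strand. The matches did not overlap each other. Among 32817 promoter windows of the same length, TTTATG occurred at least once in 10.8% and at least 2 times in 1.02%, TGATNNAT at least once in 7.69% and AGGTCA at least once in 14%. GC content was 59.2% for Hoxb1, 58% for Hoxb4 and 44.4% for Hoxb8. A match describes letters and not a bound site.

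**Figure D1:**
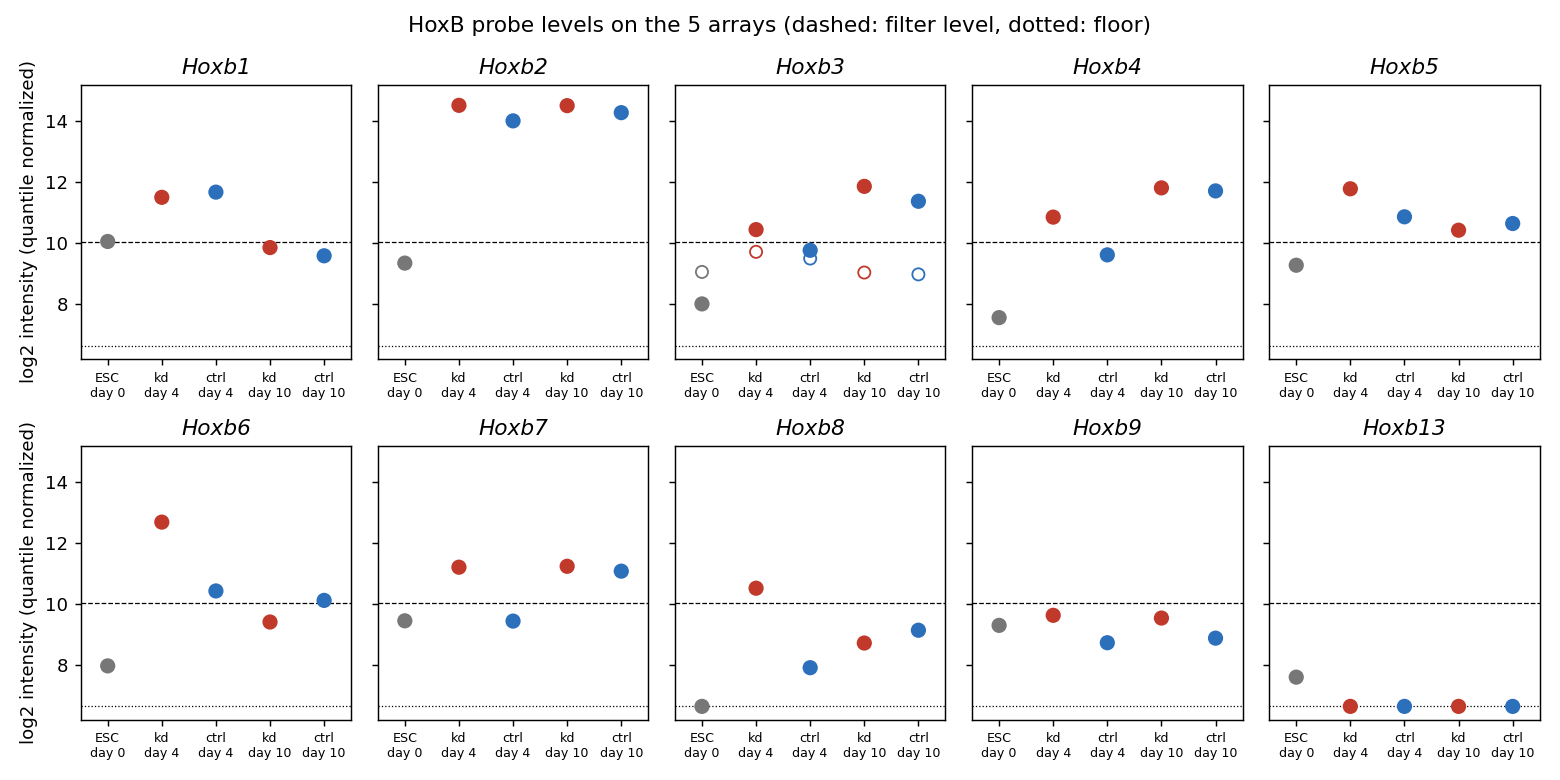
Each panel plots a HoxB gene's log2 intensity after quantile normalization (y axis) on the 5 arrays (x axis), with ESCs in grey, knockdown (kd) in red and control (ctrl) in blue. Filled points are the brightest probe, open points the other Hoxb3 probe, the dashed line the filter level of 10.04 and the dotted line the floor of 6.64. Hoxb6 stands at 12.69 in knockdown and 10.43 in control cells at day 4, and Hoxb13 lies at the floor on all 4 arrays of differentiated cells.

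In control cells, entry into the mesoderm stage came with higher levels of Hoxb1 to Hoxb6 and of Hoxb8. Day 4 minus ESCs, 7 of the 10 members were at least 2-fold higher and 0 were lower, against 9.49% of all 17742 genes higher and 10.8% lower. Hoxb2, which acts in hindbrain segments downstream of Hoxb1, showed the largest difference among the members. Its log2 level was 14.02 in control day 4 cells and 9.35 in ESCs, a difference of 4.67, or 25.5-fold. Hoxb6, a gene of lateral plate mesoderm, was at 10.43 in control day 4 cells and 7.97 in ESCs, a difference of 2.46. Hoxb4, which promotes self-renewal of blood stem cells when overexpressed, was at 9.62 in control day 4 cells and 7.56 in ESCs, a difference of 2.05.

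The differences of Hoxb3 (1.76), Hoxb1 (1.62) and Hoxb5 (1.58) formed a middle range in the same comparison. The Hoxb3 value is that of its brightest probe: the other probe gave 0.44, within the between-probe SD, and the mean of both 1.10. Hoxb8 was at the floor in ESCs, so its difference of 1.26 depends on the floor chosen. Its control day 4 level of 7.91 was under the filter. With a floor of 200 the difference was 0.26, under 2-fold, and with a floor of 50 it was 1.55. Hoxb7, Hoxb9 and Hoxb13 did not share the increase. Hoxb7 was at 9.44 in control day 4 cells and 9.45 in ESCs, Hoxb9 differed by -0.58, about the between-probe SD of 0.574, and Hoxb13 was at the floor in control day 4 cells and at 7.60 in ESCs. Along the paralog order from Hoxb1 to Hoxb9 the Spearman correlation of the differences was -0.68 over 9 genes, which share the same 2 arrays. With the filter, 4 of 4 members were counted as higher (Hoxb1, Hoxb2, Hoxb5 and Hoxb6), against 12.7% of 9682 genes, but Hoxb2, Hoxb5 and Hoxb6 passed only through the day 4 array and had to differ. The median over the 10 members was 1.60, beside 0.00 over all genes.

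From day 4 to day 10 the control culture split the cluster. Hoxb1 was lower at day 10, while Hoxb3, Hoxb4, Hoxb7 and Hoxb8 were higher and Hoxb2, Hoxb5, Hoxb6 and Hoxb9 stayed within the between-probe SD of 0.715. Hoxb1 was at 9.59 in control day 10 cells and 11.68 in control day 4 cells, a difference of -2.09. Its ESC level was 10.06, so the day 4 stage was its maximum in control cells. Hoxb4 was at 11.72 in control day 10 cells and 9.62 in control day 4 cells, a difference of 2.10. Hoxb7, known for its expression in the nephric duct, was at 11.08 in control day 10 cells and 9.44 in control day 4 cells, a difference of 1.63. That was the step at which Hoxb7 first exceeded its ESC level in control cells. Hoxb8, a gene whose overexpression blocks differentiation of myeloid progenitors, was at 9.14 in control day 10 cells and 7.91 in control day 4 cells, a difference of 1.23 with both arrays under the filter.

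Of the 10 members, 4 were at least 2-fold higher and 1 lower at control day 10 than at control day 4, against 14.2% and 14.4% of all 17742 genes. With the filter 3 of 7 were higher and 1 lower, against 19.2% and 19.8% of 9835 genes, and Hoxb3, Hoxb4 and Hoxb7 passed only through the day 10 array. The median over the members was 0.21, beside 0.00 over all genes. The Hoxb3 value depended on the probe. Its brightest probe gave 1.61 and its other probe -0.52, and the mean of both probes 0.54. Without normalization between arrays the median of all genes in this comparison was -0.72, and the calls of 4 members changed. Hoxb3 was at 0.91, Hoxb7 at 0.90 and Hoxb8 at 0.27 there, all under 2-fold, and Hoxb6 was at -1.09 and counted as lower. Hoxb4, at 1.38, and Hoxb1, at -2.94, kept their calls, while Hoxb5 was at -0.94, Hoxb9 at -0.82 and Hoxb2 at -0.51.

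**Figure D2:**
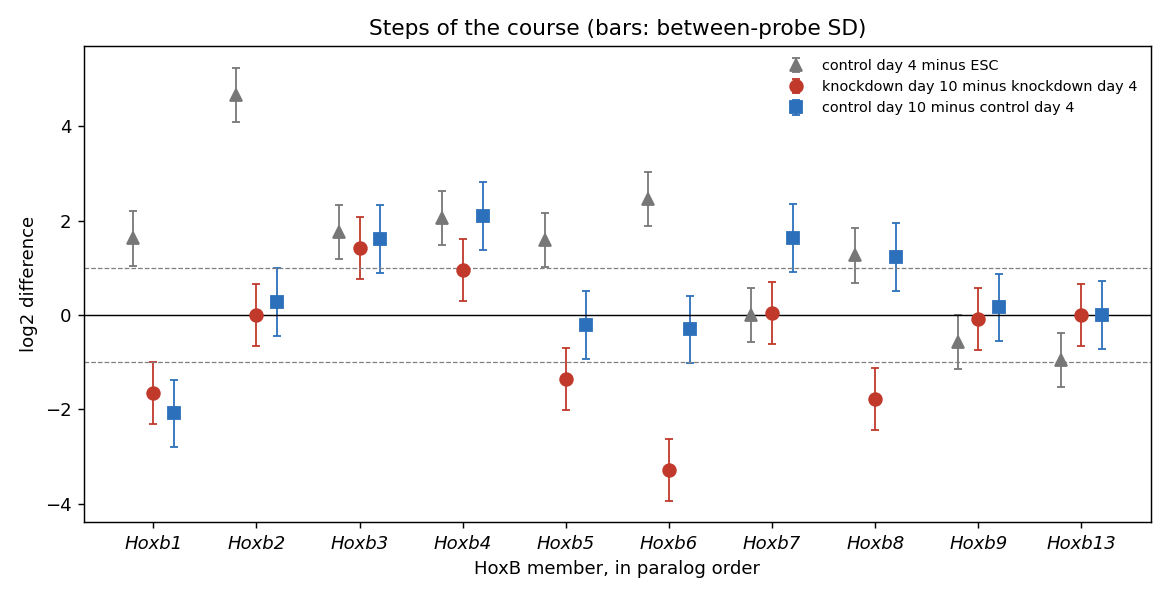
Log2 differences (y axis) of each HoxB gene in paralog order (x axis) for control day 4 minus ESCs (grey triangles), knockdown day 10 minus knockdown day 4 (red circles) and control day 10 minus control day 4 (blue squares). Bars are the between-probe SD and dashed lines mark 2-fold; Hoxb2 stands highest at 4.67 on entry into day 4, and Hoxb6 lowest at -3.28 in the knockdown course.

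Knockdown cells were set against control cells at the mesoderm stage, day 4, where Hoxb4, Hoxb6, Hoxb7 and Hoxb8 were at least 2-fold higher in knockdown cells. Of the 10 members, these 4 were higher and 0 lower, against 0.721% of all 17742 genes higher and 1.35% lower. Hoxb8 had a deposited intensity of 100 in ESCs, of 1859 in knockdown and 282 in control cells at day 4, and of 333 in knockdown and 341 in control cells at day 10. Knockdown day 4 was thus the single array with a high Hoxb8 signal. After normalization Hoxb8 was at 10.52 in knockdown and 7.91 in control cells at day 4, a difference of 2.61, or 6.11-fold.

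Hoxb6 had a deposited intensity of 297 in ESCs, of 8748 in knockdown and 1551 in control cells at day 4, and of 586 in knockdown and 728 in control cells at day 10. The log2 levels were 12.69 and 10.43 in knockdown and control cells, a difference of 2.26, or 4.79-fold. The knockdown array at day 4 was the highest of the 5 for Hoxb6, and the ESC array the lowest. Hoxb7 was at 11.21 in knockdown and 9.44 in control cells at day 4, a difference of 1.77, and control cells reached such a level only at day 10. Hoxb4 was at 10.86 in knockdown and 9.62 in control cells, a difference of 1.25.

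Hoxb5, which acts in the neural crest of the gut and marks long-term blood stem cells, lay just under the 2-fold threshold. It was at 11.79 in knockdown and 10.87 in control cells at day 4, a difference of 0.92. Without normalization between arrays, where the median of all genes was 0.20, Hoxb5 was at 1.13, which made it the 5th member counted as higher with the filter. Hoxb9, a gene of the thoracic axis, was at 9.63 in knockdown and 8.73 in control cells, a difference of 0.90 below the filter on both arrays, and of 1.02 without normalization. Hoxb3 and Hoxb2, at the front of the cluster, differed by 0.68 and 0.51, both past the between-probe SD of 0.194, and the other Hoxb3 probe gave 0.22. Hoxb1, the most anterior member, was at 11.51 in knockdown and 11.68 in control cells, a difference of -0.17 within that SD, and 0.02 without normalization between arrays. Hoxb13, a gene of the tail bud and later of prostate, was at the floor in both.

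The day 4 differences were highest at Hoxb8, Hoxb6 and Hoxb7 and did not increase at every step along the cluster: Hoxb5 lay below Hoxb4, and Hoxb7 below Hoxb6. Their Spearman correlation with paralog order was 0.72 over the 9 genes from Hoxb1 to Hoxb9, which share both arrays. With the filter 4 of 8 members were higher, against 0.652% of 9044 genes, and 1.09% of those genes were lower. Of the members past the filter Hoxb3, Hoxb4, Hoxb7 and Hoxb8 passed only through the knockdown array, so the count over all 10 members is the one to read. The median over the members was 0.91, beside 0.00 over all genes. Over the alternatives tried, Hoxb8 ranged from 2.52 to 2.72, Hoxb6 from 2.25 to 2.50, Hoxb7 from 1.71 to 1.91 and Hoxb4 from 1.20 to 1.40.

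**Figure D3:**
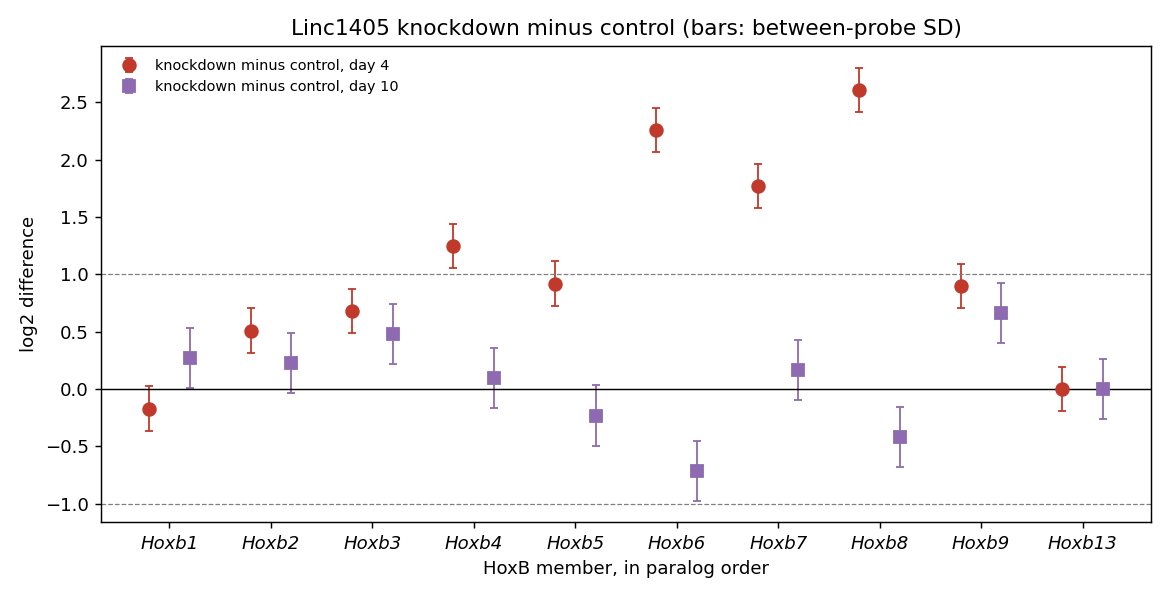
Log2 difference of knockdown minus control (y axis) for each HoxB gene in paralog order (x axis), at day 4 (red circles) and day 10 (purple squares). Bars are the between-probe SD and dashed lines mark 2-fold; at day 4 the highest point is 2.61 at Hoxb8, and at day 10 all lie between -0.71 and 0.66.

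At day 10 no HoxB gene differed 2-fold between the lines after normalization. Of the 10 members 0 were at least 2-fold higher and 0 lower in knockdown cells, against 2% of all 17742 genes higher and 2.7% lower, and with the filter 0 of 6 were higher or lower, against 2.41% and 3.51% of 9251 genes. Hoxb6 was at 9.41 in knockdown and 10.12 in control cells at day 10, a difference of -0.71. Hoxb8 was at 8.72 in knockdown and 9.14 in control cells, a difference of -0.42 below the filter on both arrays, and of -0.03 without normalization between arrays. Neither gene differed 2-fold at day 10, whereas both did at day 4.

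Hoxb9 (0.66), Hoxb3 (0.48) and Hoxb1 (0.27) were the members past the between-probe SD of 0.262 on the higher side at day 10. Hoxb9 and Hoxb1 lay under the filter on both arrays. The other Hoxb3 probe gave 0.07, within that SD, and the mean of both Hoxb3 probes 0.27. Hoxb2 (0.23), Hoxb7 (0.17), Hoxb4 (0.10) and Hoxb5 (-0.23) lay within the SD. Without normalization between arrays the median of all genes was 0.37, and there Hoxb9 was at 1.20, past 2-fold but under the filter. In that setting Hoxb3 was at 0.98, Hoxb1 at 0.78, Hoxb2 at 0.73, Hoxb7 at 0.69, Hoxb4 at 0.63, Hoxb5 at 0.27 and Hoxb6 at -0.31. The median over the members was 0.14, beside 0.00 over all genes. Hoxb4 was at 11.82 in knockdown and 11.72 in control cells at day 10, and Hoxb7 at 11.24 and 11.08. For both genes the day 10 levels of the control culture were close to, or above, those of the knockdown culture at day 4 (10.86 for Hoxb4 and 11.21 for Hoxb7).

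In the knockdown line itself, Hoxb1, Hoxb5, Hoxb6 and Hoxb8 were lower at day 10 than at day 4. Knockdown day 10 minus knockdown day 4, these 4 members were at least 2-fold lower and Hoxb3 was higher, against 13.3% of all 17742 genes lower and 14.1% higher. With the filter these were again 4 of 8 lower and 1 of 8 higher, against 18.2% and 18.7% of 9792 genes. Hoxb6 was at 9.41 at day 10 and 12.69 at day 4 in knockdown cells, a difference of -3.28, against -0.31 for the same step in control cells. Hoxb8 differed by -1.79 in knockdown and 1.23 in control cells over this step, and Hoxb5 by -1.36 in knockdown and -0.21 in control cells. Hoxb1 was lower in both lines, by -1.65 in knockdown and -2.09 in control cells, and Hoxb7 differed by 0.03 in knockdown and 1.63 in control cells. Hoxb4 differed by 0.96 in knockdown and 2.10 in control cells, and its knockdown value was 1.14, past 2-fold, with loess centring. Hoxb3 was higher at day 10 in knockdown cells by 1.42 on its brightest probe, while its other probe gave -0.68 and the mean of both 0.37.

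The arrays at which each member's brightest probe was highest fell into 3 patterns. Hoxb1, Hoxb5, Hoxb6 and Hoxb8 were highest at day 4, Hoxb1 in control cells by 0.17 over knockdown cells and the other members of this pattern in knockdown cells. Hoxb3 and Hoxb4 were highest at day 10, in knockdown cells, with control cells next at both genes. The other Hoxb3 probe did not follow this pattern: it was at 9.06 in ESCs, 9.72 in knockdown and 9.50 in control cells at day 4, and 9.04 in knockdown and 8.98 in control cells at day 10. Hoxb2 and Hoxb7 were level between knockdown day 10 and knockdown day 4 (14.52 and 14.53 for Hoxb2, 11.24 and 11.21 for Hoxb7), which were their highest arrays. Hoxb9 varied by 0.90 in all over the 5 arrays and stayed under the filter, and Hoxb13 exceeded the floor on the ESC array alone. By the brightest probe, ESCs were the lowest array for 6 of the 10 members, Hoxb2 to Hoxb6 and Hoxb8.

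The HoxB genes were set beside those of the other Hox clusters, counted without a filter. At day 4, 4 of 10 HoxB genes (median of all 10, 0.91) were at least 2-fold higher in knockdown cells, beside 3 of 10 measured HoxA, 5 of 9 HoxC and 4 of 9 HoxD genes with medians over the measured genes of 0.42, 1.01 and 0.92, against 0.721% of all genes higher. Most HoxA and HoxC genes were dim at this stage. With the filter 4 of 8 HoxB genes were higher, beside 1 of 1 HoxA, 1 of 1 HoxC and 3 of 7 HoxD genes. The share of all genes past the filter was 0.652%. Of the genes counted outside HoxB, Hoxa7, Hoxc4, Hoxd4 and Hoxd8 passed only through the knockdown array. At day 10, 0 of 10 HoxB genes were at least 2-fold higher, and their median was 0.14. Beside them stood 6 of 10 HoxA, 5 of 9 HoxC and 4 of 9 HoxD genes, with medians of 1.50, 1.10 and 0.70, against 2% of all genes higher. With the filter these were 0 of 6 HoxB, 4 of 4 HoxA, 4 of 4 HoxC and 4 of 6 HoxD genes, against 2.41% of all genes. These HoxA and HoxC genes, and Hoxd9 and Hoxd10, passed only through the knockdown array. The counts without a filter are therefore the ones to read. Within paralog groups, Hoxb7 stood at 0.17 at day 10 and Hoxa7 at 3.38, and Hoxb9 at 0.66 with Hoxa9, Hoxc9 and Hoxd9 at 3.34, 2.27 and 2.40. Hoxb4 stood at 0.10, with Hoxa4 at 0.05, Hoxc4 at 1.89 and Hoxd4 at 1.46. In the remaining groups, Hoxb2 stood at 0.23 beside Hoxa2 at -0.03, and Hoxb3 at 0.48 beside Hoxa3 at 1.74 and Hoxd3 at 0.44. Hoxb5 stood at -0.23 beside Hoxa5 at 0.71 and Hoxc5 at 0.57, and Hoxb6 at -0.71 beside Hoxa6 at -0.56 and Hoxc6 at 1.26. Hoxb8 stood at -0.42 beside Hoxc8 and Hoxd8 at 1.44 each, Hoxb1 at 0.27 beside Hoxd1 at the floor in both lines, and Hoxb13 at the floor in both lines beside Hoxa13, Hoxc13 and Hoxd13 at 1.27, 0.28 and 0.70. With 1 array per group the difference between clusters could not be tested. On entry into day 4 in control cells, 7 of 10 HoxB genes were 2-fold higher, while 0 of 10 HoxA genes were 2-fold higher. Of the other clusters, 5 of 9 HoxC genes were lower and 4 of 9 HoxD genes were higher, led by Hoxd1 at 4.76. The shares of all genes were 9.49% higher and 10.8% lower.

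**Figure D4:**
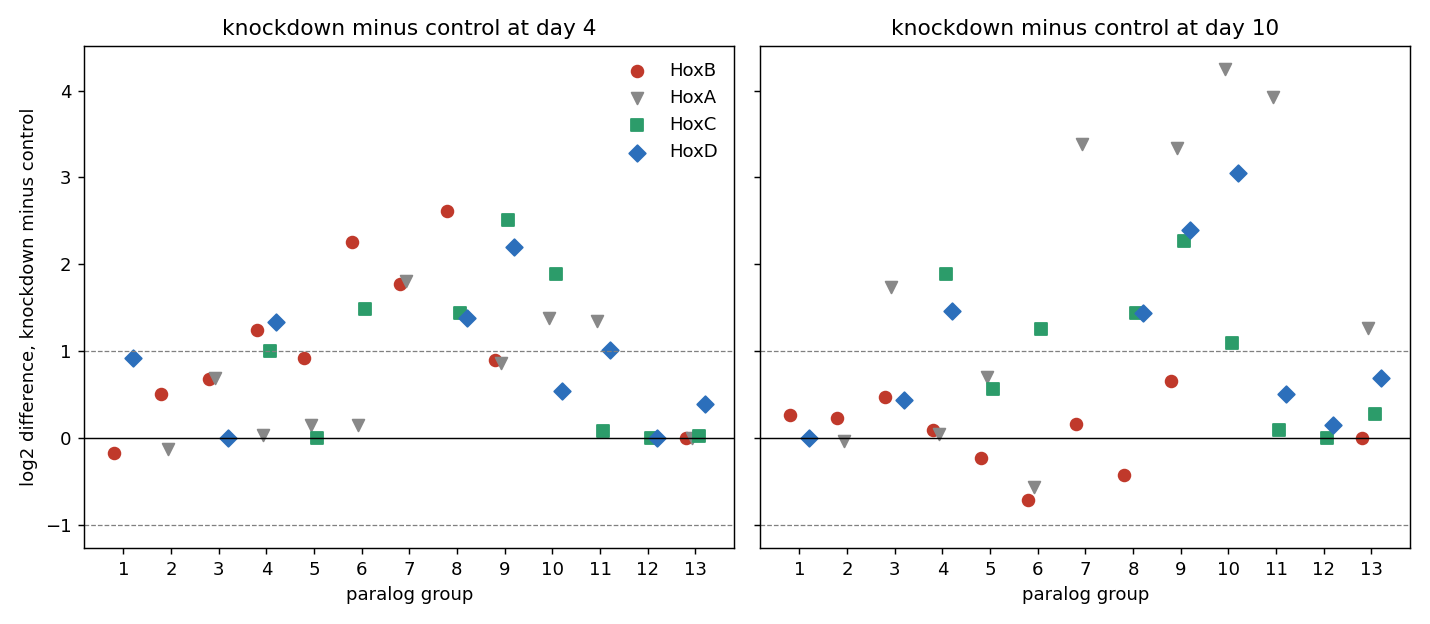
Log2 difference of knockdown minus control (y axis) against paralog group (x axis) for the measured genes of the HoxB (red), HoxA (grey), HoxC (green) and HoxD (blue) clusters, at day 4 on the left and day 10 on the right. Dashed lines mark 2-fold; at day 10 the HoxB genes lie between -0.71 and 0.66 and Hoxa10 reaches 4.25.

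Among genes known to act upstream of the cluster, Cdx2 and Cdx4 were higher in knockdown cells at day 4. In a list of Cdx factors and axis elongation signals, 2 of 14 that passed the filter were higher by at least 2-fold in knockdown cells and 2 lower, with a median of -0.11 over 20 measured members. For these and the following lists, the share of all genes past the filter was 0.652% higher and 1.09% lower at day 4, and 2.41% higher and 3.51% lower at day 10. The higher members were Cdx4, at 10.28 in knockdown and 8.26 in control cells (2.01), and Cdx2, at 14.67 and 12.96 (1.71). The lower members were Sp5, a target of Wnt signalling (-2.47), and the ligand gene Wnt3 (-1.21), and T differed by -0.94. Cdx4 passed the filter only through the knockdown array, and Sp5 and Wnt3 only through the control array. Without a filter the counts were again 2 higher and 2 lower, against 0.721% and 1.35% of all genes. At day 10 Cdx4 was at the floor in both lines and Cdx2 differed by -0.56. Wnt5b, which passed the filter only through the knockdown array, was higher by 1.55. Under the filter on both arrays, Fgf8 (-1.72), Evx1 (-1.13) and Cdx1 (-1.06) were lower in knockdown cells.

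Retinoic acid genes did not differ 2-fold past the filter at day 4 (0 of 8 in either direction, median 0.00). Below the filter, Dhrs3, which reduces retinal, was at 9.68 in knockdown and 7.91 in control cells, a difference of 1.76. At day 10, 3 of 12 past the filter were higher. These were Aldh1a2, the main retinoic acid synthesis enzyme of mesoderm (2.38), Dhrs3 (1.90), and Rarb, a receptor gene that retinoic acid itself raises (1.88). Rbp4, the retinol carrier, was lower (-3.41). Aldh1a2 passed only through the knockdown array. Without a filter 3 of 15 measured genes of this list were higher and 1 lower, against 2% and 2.7% of all genes. Of the TALE cofactors 0 of 4 past the filter differed 2-fold at day 4 (median -0.25), and at day 10 Meis1 was higher by 1.08, alone among 5. Polycomb genes, which keep Hox clusters silent, and Trithorax genes, which oppose them, were near level: 0 of 20 and 0 of 9 past the filter differed 2-fold at day 4, while at day 10 0 of 20 Polycomb genes and 1 of 9 Trithorax genes differed, the H3K27 demethylase gene Kdm6a (-1.68). Their medians were 0.02 and 0.09 at day 4 and 0.05 and 0.08 at day 10.

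Some markers of cell types that use HoxB genes were at least 2-fold higher or lower in knockdown cells at day 4. Of the lateral plate and limb field list 3 of 11 that passed the filter were higher by at least 2-fold. These were Tbx4 (3.76), Pitx1 (3.04) and Lhx2 (1.40). Tbx4 and Pitx1 passed only through the knockdown array. Without a filter 4 of 13 were higher, against 0.721% of all genes. Gata4 (-0.68) and Hand2 (-0.61) of the same list were lower in knockdown cells by less than 2-fold. This list had a median of 0.05 over 13 and a summed intensity of 124097 in knockdown and 104699 in control cells. Of the blood progenitor list 2 of 9 were higher, Klf1 (1.32) and Kit (1.23), with a summed intensity of 80994 in knockdown and 74060 in control cells. Lmo2 (-0.17) and Runx1 (-0.13) of that list stayed within the between-probe SD of 0.194. Of the presomitic and paraxial list 0 of 7 were higher and 2 lower, Dll1 (-1.84) and Mesp2 (-1.12). Both passed only through the control array, and without a filter 3 of 14 were lower, against 1.35% of all genes. The summed intensity of this list was 10990 in knockdown and 15014 in control cells. Intermediate mesoderm had 0 higher and 2 lower of 4, Six2 (-1.77) and Lhx1 (-1.11), with a median of 0.01 over 8 measured members. Emx2 (0.75) and Wt1 (0.71) of that list were higher by less than 2-fold, under the filter. Its summed intensity was 9421 in knockdown and 17653 in control cells. The neural list had 0 of 5 in either direction, with a summed intensity of 14946 in knockdown and 14039 in control cells. Pax1 and Pax9 were at the floor on all 5 arrays. The part of these cell types in the HoxB differences was not tested.

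Most genes that flank the cluster differed less than 2-fold between the lines. Of the 10 nearest protein-coding genes on each side, 17 were measured, and at day 4 their median difference was 0.07, with 1 of 12 past the filter at least 2-fold higher in knockdown cells, against 0.652% of all genes. That gene was Skap1, an adaptor of T cell signalling and the first gene beyond Hoxb1. Its log2 level was 9.33 in ESCs, 12.37 in knockdown and 11.12 in control cells at day 4, and 8.37 in knockdown and 8.92 in control cells at day 10. Skap1 thus differed by 1.24 at day 4, while Hoxb1 beside it differed by -0.17. At day 10 the median over the 17 flanking genes was -0.06, with 1 of 10 past the filter lower, against 3.51% of all genes. That gene, B4galnt2, differed by -1.83 and passed only through the control array. Inside the cluster 3 of 9 non-coding genes and pseudogenes were measured: the probe named Mir10a was at the floor on all 5 arrays, Gm53 differed by 0.49 at day 4 and Gm11538 by -1.67 at day 4, both under the filter.

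Likeness of pattern was measured as the root mean square distance between log2 profiles over the 5 arrays, each centred on its own mean. The mean profile of the 8 members past the filter on at least 1 array stood at -1.99 in ESCs, 1.16 in knockdown and -0.07 in control cells at day 4, and 0.45 in knockdown and 0.46 in control cells at day 10. The 5 genes outside the Hox clusters nearest to it were Fam163a (0.204), Mir503 (0.241), Rab37 (0.249), Zfp113 (0.254) and Bach2 (0.263). For single members the nearest genes were Dph3 to Hoxb1 (0.057), Abcc8 to Hoxb2 (0.255), Pdzrn3 to Hoxb3 (0.060), Smarca2 to Hoxb4 (0.201), Gsdme to Hoxb5 (0.117) and Rgs20 to Hoxb7 (0.103). Hoxb6 and Hoxb8 had the most distant neighbours, Stard8 at 0.571 and Rab37 at 0.553.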

How the data were processed

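The deposited table held linear probe intensities for 26423 probes on 5 arrays, 1 for each group. Per the submitters' processing notes, the tool was Agilent Feature Extraction, version 10.7.1.1. Whether the authors normalized the values was not given in the sources used here. On the knockdown day 10 array 1050 deposited intensities lay at or below 0, and on each other array 0 to 38. A background had thus been subtracted, and detection calls were not used here. Groups came from the labels. Symbols of 20377 probes were updated through a RefSeq gene table of GRCm38.p6 (18213 current, 2126 through a synonym, 38 kept), used only for names and gene order, and the brightest probe stood for a gene.

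Quantile normalization, the floor of 100 (19 to 19.1% of probes per array), log2 conversion and the 2-fold count were computed in Python 3.11.15 with numpy 2.4.6 and pandas 2.3.3, and the call rule was tested on simulated data. No p-value was computed. The members and the 17 gene lists (208 genes, 179 measured) were chosen with earlier results of these data known. Named genes were all members, flanking and enclosed genes, up to 4 members of a list along its median and 2 against it, and the 5 nearest profiles. Alternatives were no normalization between arrays, scaling to the 75th percentile, loess centring (span 0.3, 3 iterations, statsmodels 0.14.6), floors of 50 and 200, other filters, a 4-fold threshold and the mean of probes.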

Additional observations from a re-analysis of the deposited data

Results flagged for a closer look

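Hoxb6 and Hoxb8 differed between knockdown and control cells in opposite directions at day 4 and day 10, past the between-probe SD on both days after normalization, though neither differed 2-fold at day 10. The difference at day 10 minus that at day 4 was -2.97 for Hoxb6 (-0.71 against 2.26) and -3.03 for Hoxb8 (-0.42 against 2.61). It ranged from -3.13 to -2.81 for Hoxb6 and from -3.08 to -2.76 for Hoxb8 over the alternatives. Without normalization between arrays the day 10 value was -0.31 for Hoxb6 and -0.03 for Hoxb8, so that Hoxb8, under the filter on both day 10 arrays, no longer differed past the between-probe SD of 0.262 in the opposite direction. With 1 array per group the change between days was not tested.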

How the results depend on the processing

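Values of single members under the 6 alternatives that can change at least some of them numbered 360. Of these, 326 moved by no more than the between-probe SD, 34 moved further and 0 values past 2-fold changed sign. Of those 34, 25 came from the 60 values without normalization between arrays, and 9 from the floors and the mean of probes. Many of the 360 could not move, because the mean of probes acts only on Hoxb3, and the floors only on Hoxb4, Hoxb8 and Hoxb13. The 326 therefore includes values that were fixed in advance. Without normalization 5 members were higher in knockdown cells at day 4, Hoxb5 being the added one. No replicate could be left out, and no paired analysis was possible because each group held 1 array. Without normalization between arrays, the median over members at day 10 was 0.66 (over all genes 0.37), and control day 10 against control day 4 had 1 member higher and 2 lower, with 951 genes higher and 4567 lower in all (1886 and 1945 after normalization). At day 10 the split of all genes was 899 higher and 124 lower without normalization (223 and 325 with it), at day 4 it was 103 and 79 (59 and 99), for control day 4 against ESCs 2076 and 1006 (1234 and 1315), and for the knockdown course 1248 and 3512 (1832 and 1782). With loess centring the knockdown course had 2 members higher, with 2076 genes higher and 1411 lower, and control day 10 against control day 4 had 2144 and 1495. With the mean of probes, 0 members were higher in the knockdown course. Without a filter 7 members were higher in control day 4 cells than in ESCs. The filter at the 75th percentile leaves 1 or 2 members, by its construction: 1 higher in knockdown at day 4, 1 higher in control day 4 against ESCs, 0 higher and 0 lower in the control course to day 10, and 0 higher and 1 lower in the knockdown course. At 4-fold, 2 members were higher in knockdown at day 4, 2 in control day 4 against ESCs, 1 in the control course, and 0 higher and 1 lower in the knockdown course. Taking the filter percentile over all probes (9.16), chosen after seeing the data, kept each count of members within 1.5 times. Counts of all genes past 2-fold without a filter were 128 higher and 239 lower at day 4 and 355 and 479 at day 10, and with the 75th percentile filter 15 and 23 at day 4. For the other settings the cause was not tested.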
